A study of Mus musculus with 9 samples.

Results

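The carboxylesterases described here are 10 genes of the mouse Ces families, among them 4 of the Ces2 subfamily (Ces2a, Ces2b, Ces2c and Ces2e), 5 of the Ces1 subfamily (Ces1c, Ces1d, Ces1e, Ces1f and Ces1g) and Ces3a. They were picked by symbol from the 49585 gene rows of a liver RNA sequencing table that lists 20 Ces genes, and the choice was made with earlier results of the same libraries known, including their read counts. Their levels and changes between groups are therefore given as a description and not as a test of the family. The livers came from male C57BL/6J mice aged 14 weeks. Microgravity (MG) mice lived on the International Space Station for about 35 days, artificial gravity (AG) mice lived there in a centrifuge at 77 rpm that gave 1 g, and ground control (GC) mice were reared for 35 days at 1 g in Tsukuba. Each group has 3 libraries, and each flight group held 6 animals. Flight mice were killed 2 days after splashdown. They came from another supplier than the GC mice, so in every comparison with GC flight, landing and supplier cannot be told apart, whereas MG and AG share all of these. Which animal gave each library is not stated, and the spread between libraries may be technical in part.

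Carboxylesterases are serine hydrolases that cleave ester and amide bonds in drugs, other foreign compounds and lipids. In the liver most sit in the lumen of the endoplasmic reticulum, where a short signal at the carboxyl end, usually histidine, any residue, glutamate and leucine, keeps them from being secreted. The mouse genome holds more Ces genes than the human genome, in tandem arrays of near copies. Members of the mouse Ces1 subfamily hydrolyse stored triglyceride and help to supply lipid for very low density lipoprotein, and Ces2 enzymes act on drugs, acylcarnitines and acylglycerols.

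The ends of the coding sequences are shown because they carry the retention signal. Each line gives the last 15 bases of the longest complete coding sequence of the gene in GENCODE M21 (GRCm38), with the last 4 codons before the stop in capitals.
Ces2a: CATGCAGAGCTGtag
Ces2b: CACACGGAGCTTtag
Ces2c: CACAGGGAGCTTtag
Ces2e: CACAAAGAGTTGtag
Ces3a: CCAGAGGAGCTCtga
Ces1c: ACAGAACACAAAtga
Ces1d: CATGTTGAGCTCtga
Ces1e: CACACTGAGCTGtga
Ces1f: CACAATGAGCTGtga
Ces1g: CATGTTGAACTGtga
The codons for histidine, any residue, glutamate and leucine closed 8 of the 10 coding sequences. The 2 others were Ces1c, the carboxylesterase of mouse plasma, and Ces3a, which ends on codons for glutamate and leucine but has no histidine codon as the first of the 4. The 10 open frames hold between 554 and 571 codons.

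Between 6194521 and 8957331 gene counts were made per library, enough to test 11884 genes. All 6 hepatocyte markers were present, with summed levels of 80367 to 111040 CPM (counts relative to a common library total, scaled by TMM). Skeletal muscle transcripts were high in GC 1, GC 2, MG 2 and AG 1, with summed levels of 83.1 to 616 CPM for 10 markers against 0.450 to 14.9 CPM in the other libraries. Macrophage markers summed to 1037 CPM in AG 1 and to between 175 and 237 CPM elsewhere. Intestinal markers, of interest because gut epithelium also makes Ces2 enzymes, summed to 38.3 to 56.6 CPM in GC and 70.4 to 113 CPM in MG, with Cdx1 and Alpi at 0 reads in every library. Bile duct markers summed to 16.1 to 24.4 CPM in GC, 12.2 to 13.1 CPM in MG and 23.3 to 36.8 CPM in AG, and erythroid markers to 204 to 365 CPM, 170 to 200 CPM and 281 to 418 CPM, so MG lay below GC in both. Their part in the results was not tested.

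Levels between genes are compared per length, as the deposited RPKM, which scales reads by exon length and by the mapped reads of the library. Averaged over the 9 libraries, the family was led by Ces1c at 507 RPKM, Ces3a at 320 RPKM and Ces1d at 196 RPKM. Ces1c was the gene in place 77 of the whole table by this measure. Ces2a stood at 70.1 RPKM, Ces1f at 63.4 RPKM, Ces1g at 34.7 RPKM and Ces1e at 25.6 RPKM. Ces2e followed at 23.1 RPKM and Ces2c at 19.6 RPKM. Ces2b came last of the members at 0.377 RPKM, a level at which its 9 libraries held 165 reads together. In the GC libraries alone, Ces2c at 30.9 to 32.3 RPKM lay above Ces2e at 25.7 to 28.6 RPKM, the reverse of this order. RPKM rests on total exon reads, of which 67.5% were unique for Ces2c and 99.7% for Ces2e. Multiply mapped reads thus enter the Ces2c level, and its place against Ces2e depends on them. The GC ranges of Ces1g and Ces1e overlapped, so that pair cannot be ordered there.

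MG was set against GC to ask how liver expression differs after life in microgravity. Ces2c and Ces2b fell in MG, all 4 Ces2 members had lower values in every MG library than in any GC library, and Ces1c and Ces1d had higher values in every MG library. By edgeR's quasi-likelihood test with Benjamini-Hochberg adjustment over all tested genes, 2 of the 10 members were called lower and 0 higher at an adjusted p below 0.05. Over all tested genes 0.841% were called lower and 0.547% higher. Unadjusted, 7 of the 10 members had a p below 0.05, beside 1648 of the 11884 tested genes. MG and GC lay apart, without overlap of their libraries, for 7 of the 10, 5 of them lower and 2 higher, where 11.3% and 11.9% of all tested genes lay apart in these directions. The median log2 fold change of the 10 was -0.24, beside 0.01 for all tested genes. Since the members were chosen with these values known, nothing is read from either share.

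Ces2c, an enzyme that hydrolyses acylcarnitines, had levels of 89.5, 89.6 and 82.8 CPM in the 3 GC libraries, 19.1, 27.1 and 16.2 CPM in MG and 47.7, 73.9 and 49.6 CPM in AG. The 3 groups did not overlap, and AG lay between the others. The mean fell from 87.3 ± 3.88 CPM (SD, n = 3) in GC to 20.8 ± 5.61 CPM (SD, n = 3) in MG, a log2 fold change of -2.07 ± 0.20 (SE) or 4.19-fold. Unique junction reads of the same libraries, not scaled for depth, were 305, 238 and 238 in GC, 69, 92 and 53 in MG and 125, 262 and 134 in AG. Unscaled, AG 2 lay above GC 2 and GC 3. These reads are no independent support for the CPM values. With GC 1, GC 2 and MG 2 left out, the libraries with most muscle RNA, the log2 fold change of Ces2c was -2.24 ± 0.28 (SE), in a fit with 1 GC library left that called 0 of all tested genes. In bulk liver, fewer cells of a type and less RNA per cell cannot be told apart.

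Ces2b, the next Ces gene upstream of Ces2c, was near the lower limit of these libraries. It had 43, 29 and 37 reads in the GC libraries, 3, 2 and 2 reads in MG and 18, 30 and 1 reads in AG. All MG libraries thus lay at or under 3 reads, the count taken as the floor here. AG was split, with AG 3 at the level of MG, while AG 1 and AG 2 stood at 2.74 and 3.73 CPM, below the lowest GC library at 4.57 CPM. Summed over the libraries of a group, 109 reads in GC stood against 7 reads in MG, a level 17.8 times as high per gene count (95% exact interval 8.35 to 45.3, counting error only). The fitted log2 fold change was -4.06 ± 0.75 (SE). The call ended when any 1 GC or MG library was left out, with adjusted p between 0.0826 and 0.128 in edgeR's test, and by limma-voom with all libraries (adjusted p = 0.0858).

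Ces2a and Ces2e, the other members of this subfamily, stood lower in MG without passing the threshold. Ces2a had 355, 408 and 367 CPM in GC, 256, 235 and 208 CPM in MG and 275, 423 and 376 CPM in AG, with a log2 fold change in MG of -0.69 ± 0.15 (SE). Every MG library lay below every GC and AG library. Ces2e had 152, 144 and 148 CPM in GC, 93.7, 127 and 97.1 CPM in MG and 95.9, 147 and 131 CPM in AG, with a log2 fold change in MG of -0.48 ± 0.16 (SE). Its MG libraries lay below those of GC and overlapped those of AG. Ces3a, an abundant microsomal esterase of the liver, ranged from 1284 to 1688 CPM in GC, from 1298 to 1612 CPM in MG and from 1320 to 1448 CPM in AG. Its 3 groups overlapped, and its log2 fold change in MG of -0.00 ± 0.13 (SE) has a 95% interval of -0.31 to 0.31.

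**Figure D1:**
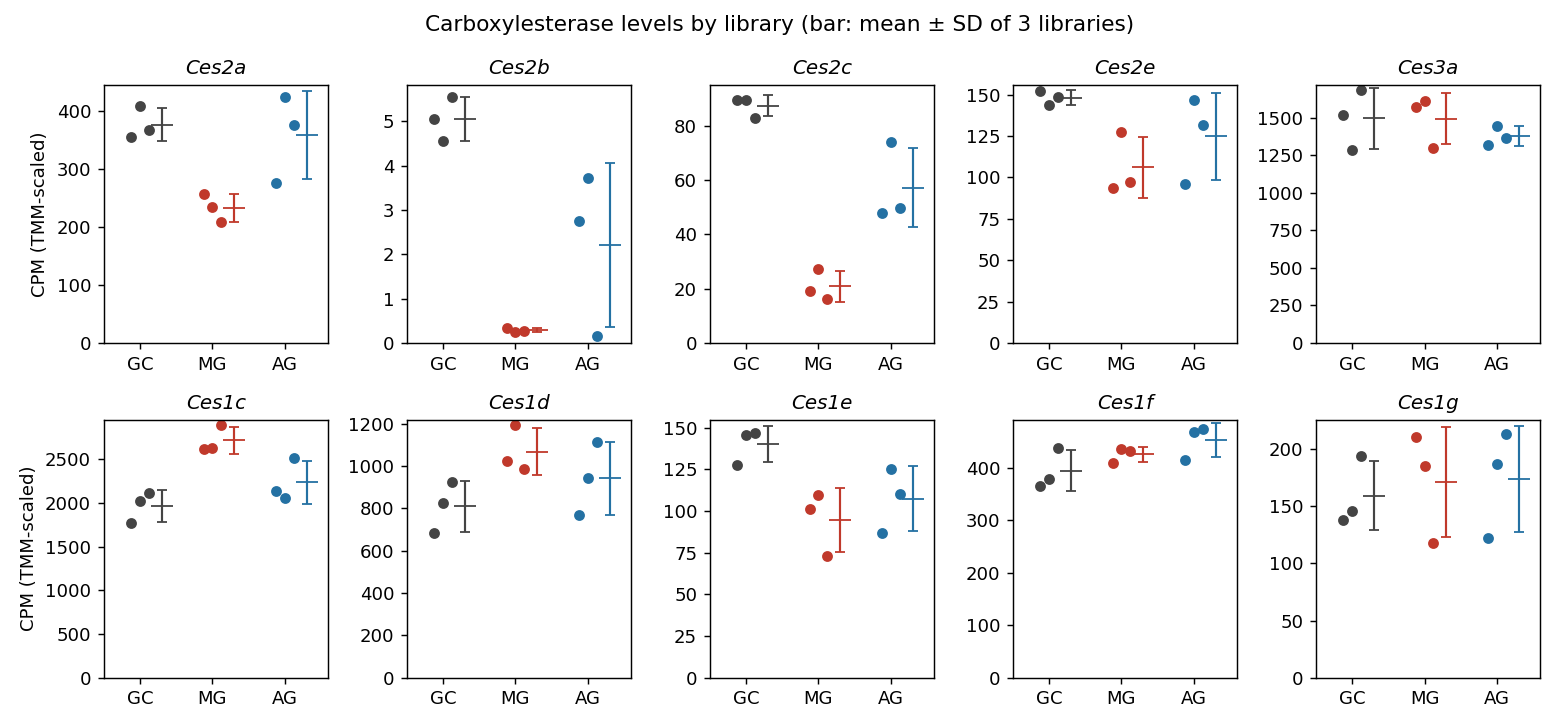
Level of each of the 10 carboxylesterases in CPM (vertical axis, from 0) in the 3 libraries of each group (points), with the group mean ± SD beside them. Ces2c falls from 87.3 CPM in GC to 20.8 CPM in MG with AG between, Ces2b has 1 AG library at the level of MG, and Ces1c and Ces1d are higher in every MG library than in GC.

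The Ces1 members did not move together. Ces1c, the plasma esterase, had 1765, 2025 and 2112 CPM in GC, 2621, 2631 and 2895 CPM in MG and 2132, 2057 and 2511 CPM in AG. Its MG libraries all lay above those of both other groups, at a log2 fold change against GC of 0.47 ± 0.12 (SE) that was not called. Ces1d, the triglyceride hydrolase that mobilises stored fat for lipoprotein assembly, had 684, 824 and 923 CPM in GC, 1023, 1194 and 986 CPM in MG and 769, 944 and 1114 CPM in AG, with a log2 fold change in MG of 0.40 ± 0.16 (SE). Its MG and GC libraries did not overlap, and AG overlapped both. With the muscle-rich GC 1, GC 2 and MG 2 left out, the log2 fold change of Ces1d was 0.11 ± 0.24 (SE). That fit keeps GC 3 as its only GC library, the one with the highest Ces1d level of the group. Ces1e, known as egasyn, which holds beta-glucuronidase in the endoplasmic reticulum, had 128, 146 and 147 CPM in GC, 102, 110 and 72.9 CPM in MG and 86.6, 125 and 110 CPM in AG. Its values in both flight groups lay below those of GC, at log2 fold changes of -0.57 ± 0.17 (SE) in MG and -0.38 ± 0.17 (SE) in AG, neither of them called.

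Ces1f, a relative of Ces1d that also acts on triglyceride, and Ces1g, a further lipid-handling esterase of the liver, showed no clear difference between groups. Ces1f had a mean of 394 ± 38.9 CPM (SD, n = 3) in GC, 425 ± 14.8 CPM (SD, n = 3) in MG and 452 ± 32.5 CPM (SD, n = 3) in AG. Ces1g ranged from 138 to 194 CPM in GC, from 118 to 211 CPM in MG and from 123 to 213 CPM in AG. The groups overlapped for both genes. The 95% intervals of the log2 fold change in MG were -0.14 to 0.36 for Ces1f and -0.48 to 0.69 for Ces1g. A change of Ces1g anywhere within its interval is compatible with these libraries.

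AG was set against GC to ask what differs after flight with 1 g kept up, with the same GC libraries as above. In it 0 of the 10 members were called by edgeR, and 0 by DESeq2 and limma-voom, with 2 at an unadjusted p below 0.05. Over all genes edgeR called 0.0%, with 1199 genes at an unadjusted p below 0.05, while DESeq2 called 118 genes and limma-voom 0. The libraries lay apart for 3 members, all lower in AG (Ces2b, Ces2c and Ces1e), beside 7.17% of all tested genes lower and 7.21% higher. Ces2c had a log2 fold change of -0.61 ± 0.19 (SE) in AG against -2.07 in MG, Ces2b -1.16 ± 0.57 against -4.06, and Ces2a -0.07 ± 0.15 against -0.69.

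The direct comparison of MG with AG, both flown, bears on gravity in orbit. Here edgeR called 0.0% of all genes and 0 of the 10 members, with 1165 genes and 4 members at an unadjusted p below 0.05. limma-voom called 2 genes and 0 members, while DESeq2 called 97 genes, among them Ces2a, Ces2b and Ces2c, lower in MG. The log2 fold changes were -1.46 ± 0.20 (SE) for Ces2c, -2.90 ± 0.80 for Ces2b and -0.62 ± 0.15 for Ces2a. Without AG 1, which was rich in macrophage transcripts, edgeR called 1 of the 10 (Ces2c) and 7 of all genes. Without AG 3 it called 2 of the 10 (Ces2b and Ces2c) and 130 of all genes. With both flight groups set against GC, 1 of the 10 members was called lower, Ces2c at -1.34 ± 0.16 (SE), beside 0.648% of all tested genes lower and 0.353% higher. That call ended without GC 1, without GC 2 and without GC 3.

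The Ces2 subfamily took a smaller share of the carboxylesterase signal in MG. Of the RPKM summed over all 20 Ces genes, Ces2 genes held 11.6%, 12.1% and 10.1% in the GC libraries, 5.77%, 5.96% and 5.24% in MG and 8.30%, 11.1% and 8.92% in AG. MG lay below both other groups, which overlapped. Ces1 genes held 56.4 ± 2.51% (SD, n = 3) in GC, 67.1 ± 2.95% in MG and 62.7 ± 3.44% in AG. Ces3 genes held 32.2 ± 2.91%, 27.2 ± 2.63% and 27.8 ± 2.31% in the same order. The sum itself was 1304 ± 88.8 RPKM in GC, 1480 ± 126 RPKM in MG and 1284 ± 145 RPKM in AG, ranges that overlapped. These shares rest on the same values as the members' changes above.

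**Figure D2:**
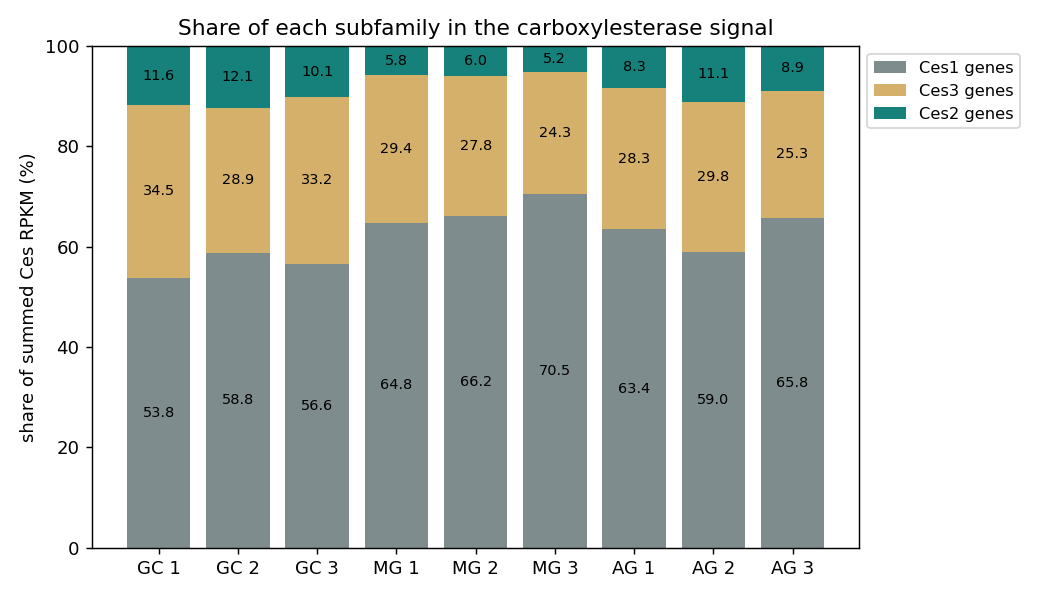
Share of the Ces1, Ces3 and Ces2 genes in the summed RPKM of all Ces genes (vertical axis, percent) in each of the 9 libraries, with Ces4a and Ces5a too small to draw. Ces2 genes hold 5.24% to 5.96% in MG and 10.1% to 12.1% in GC.

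Near copies limit how surely reads are given to 1 gene. Coding sequences of the Ces2 members were 82.6% to 92.1% identical to each other and those of the Ces1 members 74.5% to 81.6%, while members of different subfamilies were 62.0% to 64.8% identical. The closest pair among the members was Ces2b and Ces2c at 92.1%, both of them called lower in MG. Of the 50-base windows of the Ces2c transcript, 42.2% also occurred in a transcript of another gene, mostly the pseudogene Ces2d-ps with 38.2%, and 67.5% of its exon reads mapped to a single place. For Ces2b 9.56% of windows were shared and 94.8% of reads were unique. Ces3a shared 30.9% of its windows with Ces3b, at 78.9% unique reads, whereas every exon read of Ces1d, Ces1f and Ces1g was unique. With unique exon reads alone Ces2c had 733, 552 and 530 reads in GC and 158, 211 and 120 in MG. Its log2 fold change from them was -2.07 ± 0.21 (SE), as it was for the counts. The counts are unique exon reads plus multiply mapped junction reads, so both values could hardly differ. With total exon reads, which include the multiply mapped ones, the log2 fold change of Ces2c was -2.11 ± 0.21 (SE).

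**Figure D3:**
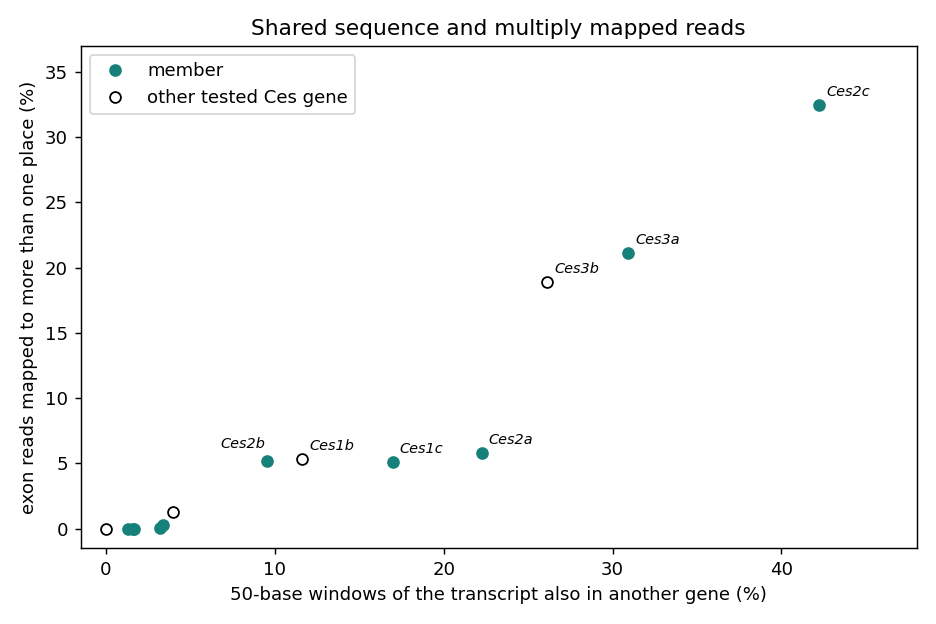
Exon reads that mapped to more than 1 place (vertical axis, percent over 9 libraries) against the share of 50-base windows of the transcript that also occur in a transcript of another gene (horizontal axis, percent), for the 10 members (filled) and 4 other tested Ces genes (open). Ces2c is highest on both axes, followed by Ces3a and Ces3b.

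Reads in introns, kept because ribosomal RNA was depleted and polyadenylated RNA was not selected, gave a second readout of the same libraries. Of the 10 members 8 had enough unique intron reads to be tested, and 0 of them were called by edgeR in MG vs GC, with 3 at an unadjusted p below 0.05, beside 0.602% of 10630 genes called and 1113 at an unadjusted p below 0.05. Of the 8 values 7 were negative, with a median of -0.41 against -0.01 for all genes tested on introns. Ces2c was too low for the test, at 11, 15 and 18 unique intron reads in GC, 3, 2 and 2 in MG and 9, 7 and 7 in AG, and these groups did not overlap either. Ces2b had 0 intron reads in 8 libraries and 1 in MG 2.

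The sign differed between both kinds of read for Ces1d, Ces1f and Ces1g. Intron levels of Ces1d were 375, 471 and 528 CPM in GC, 397, 293 and 304 CPM in MG and 449, 368 and 361 CPM in AG. The MG values overlapped those of GC, at a log2 fold change of -0.46 ± 0.19 (SE) beside 0.40 for the counts. Ces1g had an intron log2 fold change of -0.78 ± 0.31 (SE) beside 0.11, and Ces1f -0.38 ± 0.21 beside 0.11. Ces1c and Ces1e had like values on both, 0.43 ± 0.24 beside 0.47 for Ces1c and -0.75 ± 0.22 beside -0.57 for Ces1e. Intron levels of Ces1c were 242, 265 and 319 CPM in GC and 519, 335 and 257 CPM in MG, which overlapped, with MG 1 highest. Those of Ces1e were 49.2, 64.4 and 63.8 CPM in GC and 33.1, 36.7 and 35.4 CPM in MG, without overlap. The difference between intron and exon values was not tested.

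**Figure D4:**
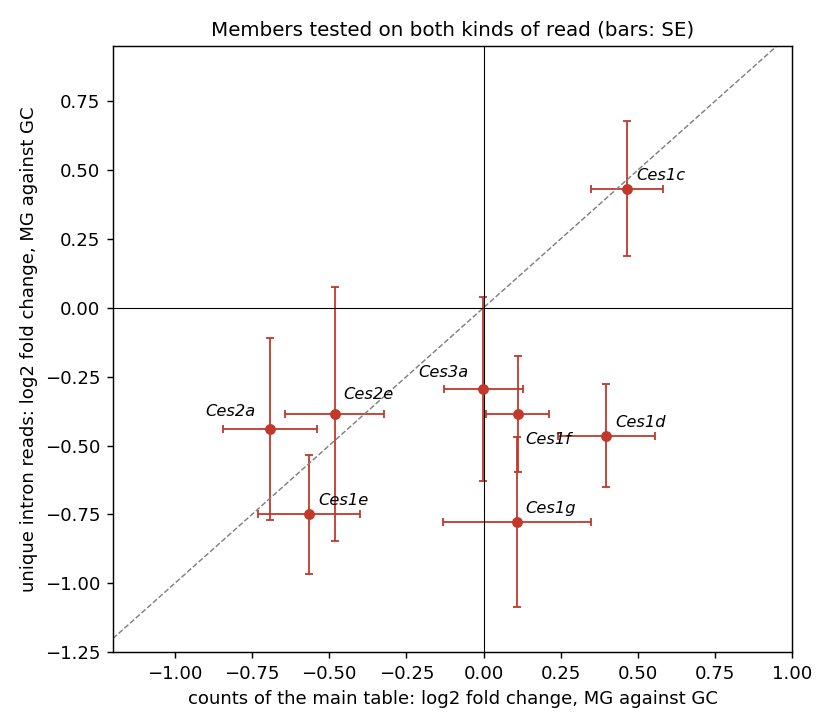
Log2 fold change in MG vs GC from unique intron reads (vertical axis) against that from the counts (horizontal axis) for the 8 members tested on both, with SE bars and a dashed line of equal values. Ces1c and Ces1e lie on or near the line, and Ces1d, Ces1f and Ces1g lie below it at positive values of the counts and negative values of the introns.

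All 20 Ces genes of the table lie on chromosome 8 (GRCm38), in a pair of tandem blocks 11.2 Mb apart. The Ces1 block with Ces5a runs from 93020214 to 93535830 on the minus strand, and the block from Ces2a to Ces4a runs from 104734003 to 105150109 on the plus strand. Ces2b (ENSMUSG00000050097) spans 104831572 to 104840093 and Ces2c (ENSMUSG00000061825) spans 104847068 to 104854483, with the unread pseudogene Matr3-ps2 between them. Ces1c (ENSMUSG00000057400) spans 93099015 to 93131283. These are gene bodies, whose exons were counted. The genes next to the Ces2 block were Fam96b at a log2 fold change in MG of -0.34 ± 0.18 (SE) and Cbfb at -0.32 ± 0.17, and Lpcat2 next to the Ces1 block stood at 0.00 ± 0.51. None of these 3 was called. The other genes with reads inside the blocks were RP23-8D10.1, RP23-279O5.4, RP23-146A22.1 and RP23-146A22.3, which had 6 to 35 reads over the 9 libraries, too few to be tested.

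**Figure D5:**
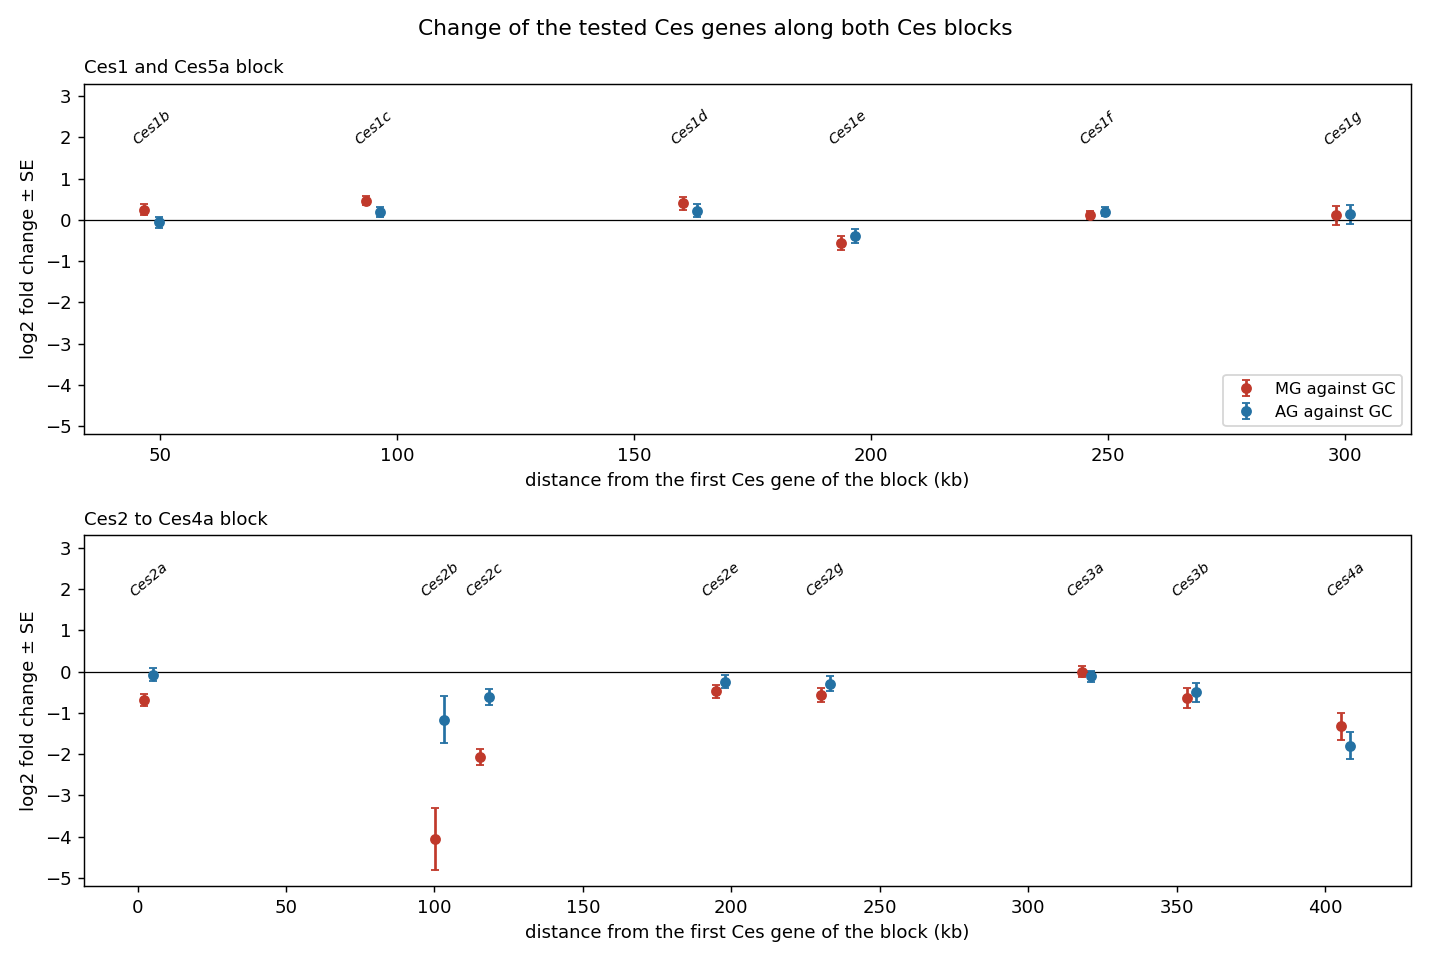
Log2 fold change ± SE (vertical axis) of the tested Ces genes in MG and AG against GC, along both Ces blocks (horizontal axis, distance in kb of the middle of each gene from the first Ces gene of the block). Ces2b and Ces2c are lowest in MG, at -4.06 and -2.07, and Ces4a is low in both flight groups.

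Promoters of Ces2 members are shown because all Ces2 members had lower values in MG than in GC. They are the 250 bases before the start of transcription in the RefSeq promoter table (GRCm38.p6). It matched 6 of the 10 members and had no entry for Ces2b, but held Ces2a, Ces2c and Ces2e. The longest runs that these 3 share at any place on the strand of the gene, 3 runs of 7 bases, are in capitals.
Ces2a, chr8:104733753-104734002, plus strand: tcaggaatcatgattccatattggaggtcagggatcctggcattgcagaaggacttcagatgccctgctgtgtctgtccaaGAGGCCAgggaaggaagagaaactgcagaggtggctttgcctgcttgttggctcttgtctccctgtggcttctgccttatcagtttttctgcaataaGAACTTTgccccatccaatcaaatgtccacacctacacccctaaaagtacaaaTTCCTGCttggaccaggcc
Ces2c, chr8:104846818-104847067, plus strand: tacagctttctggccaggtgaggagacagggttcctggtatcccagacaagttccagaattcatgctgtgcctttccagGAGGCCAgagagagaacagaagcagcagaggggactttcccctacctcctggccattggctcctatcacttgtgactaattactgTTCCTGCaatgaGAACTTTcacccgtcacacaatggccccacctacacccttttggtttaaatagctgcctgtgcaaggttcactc
Ces2e, chr8:104926010-104926259, plus strand: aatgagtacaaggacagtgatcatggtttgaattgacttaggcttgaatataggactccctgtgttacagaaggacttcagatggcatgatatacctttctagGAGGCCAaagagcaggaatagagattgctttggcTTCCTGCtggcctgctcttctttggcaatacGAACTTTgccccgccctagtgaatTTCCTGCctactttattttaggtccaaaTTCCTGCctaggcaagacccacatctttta
GAGGCCA ends 162 bases before the start in Ces2a, 164 in Ces2c and 140 in Ces2e. GAACTTT ends 65 bases before it in Ces2a, 67 in Ces2c and 75 in Ces2e. TTCCTGC ends 12 bases before it in Ces2a and 79 in Ces2c, and stands at 3 places in Ces2e, 106, 51 and 23 bases before the start. Of the 32851 promoters of the table, in the same window and on either strand, 6.56% held GAGGCCA, 3.28% GAACTTT and 7.28% TTCCTGC. Of 15 Ces genes with a promoter in the table, 5 held GAGGCCA (these 3, Ces2f and Ces3b), 3 held GAACTTT (these 3) and 5 held TTCCTGC (these 3, Ces1c and Ces2g). Aligned over their length, the 3 promoters were 66.8% to 69.9% identical to each other, less than their coding sequences at 82.6% to 84.0%. Ces2g, which is no member, also had lower values in every MG library than in GC, and its promoter held TTCCTGC but neither other run. The runs describe these letters and are no evidence of a site.

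Of the other 10 Ces genes, 4 passed the filter on low counts. Of these, 0 were called in MG vs GC by edgeR, with 3 at an unadjusted p below 0.05, beside 1648 of all 11884 tested genes. Ces4a, next in the Ces2 block after Ces3b, had 60, 58 and 44 reads in GC, 23, 24 and 26 in MG and 8, 27 and 12 in AG, with log2 fold changes of -1.33 ± 0.32 (SE) in MG and -1.79 ± 0.33 in AG. Both flight groups lay below GC, and with them set together against GC the gene was called lower, at -1.56 ± 0.27. DESeq2 and limma-voom also called it in MG vs GC. Ces3b, the near copy of Ces3a at 95.3% coding identity, had a log2 fold change in MG of -0.64 ± 0.24, Ces2g of -0.56 ± 0.18 and Ces1b of 0.24 ± 0.14, and none of them was called. Ces1a, Ces2d-ps, Ces2f and Ces2h had 3 to 16 reads in all, and Ces1h and Ces5a had 0.

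Lists of related genes, also drawn up with earlier results known, are described by counts in MG vs GC. Over all tested genes 0.841% were called lower and 0.547% higher, with a median log2 fold change of 0.01. Of 21 tested genes of other liver esterases and hydrolases, 2 were called higher and 0 lower by edgeR, with a median log2 fold change of 0.19. Abhd2, a monoacylglycerol lipase, rose from 183 ± 31.2 CPM to 348 ± 7.33 CPM and Lipc, hepatic lipase, from 112 ± 5.37 CPM to 164 ± 12.6 CPM. The paraoxonase Pon1 at 0.63 ± 0.15 and butyrylcholinesterase, Bche, at 0.55 ± 0.14 were not called. Of 15 genes of very low density lipoprotein assembly and triglyceride mobilisation, 1 was called lower and 0 higher, with a median of 0.06. It was G0s2, the inhibitor of adipose triglyceride lipase, at 47.4 ± 3.08 CPM in GC and 15.9 CPM in MG. Apob at 0.41 ± 0.11, Tm6sf2 at 0.53 ± 0.25 and Pnpla2, the lipase that G0s2 inhibits, at -0.39 ± 0.19 were not called.

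Of 15 genes of the drug receptors CAR and PXR and their targets, 1 was called higher and 1 lower, with a median of 0.18. The glucuronosyltransferase Ugt1a1 rose by 0.68 ± 0.12 on the log2 scale and the P450 gene Cyp2c55 stood at -2.08 ± 0.33, while the transporters Abcc3 at 0.42 ± 0.13 and Slco1a4 at 0.60 ± 0.19 were not called. Of 10 transcription factors of hepatic lipid and drug genes 0 were called by edgeR, with a median of 0.20. Hnf4a had 0.34 ± 0.12, Nr0b2 0.96 ± 0.39, Ppara 0.50 ± 0.16 and Srebf1, which drives fatty acid synthesis, -1.21 ± 0.44. For the retention of enzymes in the endoplasmic reticulum, the receptors Kdelr1 and Kdelr2 stood at -0.07 ± 0.10 and -0.02 ± 0.09, and Gusb, the beta-glucuronidase that egasyn binds, at -0.24 ± 0.11, again with 0 called of 3 tested.

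The genes most like a member were found by the mean absolute difference of log2 CPM, each gene centred on its mean over the 9 libraries. For Ces1c, the member with the highest log2 fold change in MG, these included Agt (0.047), Agtpbp1 (0.050), Zfp994 and Ngrn, of which Agt, angiotensinogen, rose in MG with a log2 fold change of 0.57 ± 0.10. For Ces2c, the lowest of the members with a mean count of at least 50, they were Elovl6 (0.26), 1500017E21Rik (0.27), Cyp4a12b, Nudt7 and Clic5. Elovl6, which elongates palmitate, had 233 CPM in GC, 65.4 CPM in MG and 140 CPM in AG, the same order of groups as Ces2c. Genes with a like pattern share libraries and depth with the member, and the likeness is a description.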

How the data were processed

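Total RNA of powdered liver was depleted of ribosomal RNA and sequenced, per the labels' protocols. The authors deposited 1 table of whole-number read counts per gene, split into exon, junction and intron reads. The deposited expression values, the counts tested here, equal unique exon reads plus multiply mapped junction reads in every gene and library. RPKM values were deposited by the authors, per the file headers from total exon reads, and are used only for levels between genes. The submitters' processing notes name GRCm38 and mm10, while aligner and use of strand were not given in the sources used here. In all, 63 columns of per-library values were not used.

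The 10 members and all gene lists were chosen with earlier results of these data known. Libraries held 6194521 to 8957331 counts, and 3 reads correspond to 0.335 to 0.484 CPM. The interval of the summed Ces2b reads and the floors cover counting error only, and reads carry no molecular identifiers. The 95% intervals of log2 fold changes use the fitted SE and 6 degrees of freedom, and so include the spread between libraries. Genes passing filterByExpr (11884) entered edgeR's quasi-likelihood model with TMM scaling, over 9 libraries with 1 mean per group (6 residual degrees of freedom). A gene was called at a Benjamini-Hochberg adjusted p below 0.05 over all tested genes. Libraries lie apart where the CPM ranges of both groups do not overlap. Unique intron reads were fitted in the same way. The fit was checked on simulated counts for MG vs GC, AG vs GC and MG vs AG. It recovered 10.4% to 17.9% of 1.5-fold, 59.7% to 62.7% of 2-fold and 83.3% to 87.9% of 4-fold changes, with 7 to 10 false calls. A gene that was not called can therefore still differ between groups. Named are all members, other Ces genes, up to 4 tested genes of each list by smallest p in MG vs GC, the 5 genes most like the highest and lowest member, and neighbours of the blocks, of which some are not reported here. Coding sequences come from GENCODE M21, promoters from RefSeq, and deposited gene starts count from 0 and were raised by 1. Alternatives were RLE scaling, no scaling beyond the library total, no filter, DESeq2, limma-voom, the 2 groups alone, a replicate block, unique or total exon reads, each library left out, and the 3 muscle-rich libraries of GC and MG left out. Tools were Python 3.11.15 with Biopython 1.88, matplotlib 3.10.9 and pandas 2.3.3, and R 4.3.3 with DESeq2 1.42.0, limma 3.58.1 and edgeR 4.0.16.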

Additional observations from a re-analysis of the deposited data

How the results depend on the processing

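Of the 10 members, 2 were called in MG vs GC. The count was 5 by DESeq2 (Ces1c, Ces1e, Ces2a, Ces2b and Ces2c), 1 by limma-voom (Ces2c), 3 with no scaling beyond the library total and 3 without a filter (Ces2a, Ces2b and Ces2c in both), 2 (Ces2b and Ces2c) with RLE scaling, with unique exon reads and with total exon reads, 4 with the 2 groups alone (Ces1c, Ces2a, Ces2b and Ces2c), 0 with GC 1, GC 2 and MG 2 left out, the libraries with most muscle RNA, and 1 to 4 with each library left out in turn. Ces2c was called in each of those 9 fits, and Ces2b was lost when any 1 GC or MG library was left out. Over all tested genes 165 were called in the main fit, 390 by DESeq2, 156 by limma-voom and 375 with the 2 groups alone. No scaling beyond the library total gave 189, no filter 278, RLE scaling 169, unique exon reads 167 and total exon reads 143. With each library left out in turn, 21 to 290 were called. In MG vs AG, where 0 were called, the count was 1 without a filter (Ces2c), 3 by DESeq2 and 0 to 2 with 1 library left out. Over all genes these fits called 38, 97 and 0 to 130. In Flight vs GC, where 1 was called, the count was 2 without a filter, 3 by DESeq2 and 2 with unique exon reads. It was 0 to 2 with 1 library left out. Over all genes the main fit called 119 and these alternatives 215, 322 and 122, with 0 to 229 when 1 library was left out. Of the other Ces genes in MG vs GC, 1 (Ces4a) was called without a filter, by DESeq2, by limma-voom and with the 2 groups alone, and 0 to 1 with 1 library left out. On intron reads 0 to 2 members were called with 1 library left out, beside 9 to 166 of all genes tested on introns. In AG vs GC the count was 0 in every alternative run. Signs turned only for members near 0 in MG vs GC. Ces1f was -0.071 without the muscle-rich libraries, in a fit with 1 GC library left. Ces1g was -0.25 without them and between -0.068 and 0.32 with 1 library left out. Ces3a was 0.0051 without a filter, 0.0017 by limma-voom and between -0.099 and 0.092 with 1 library left out. The cause was not tested. Correlations of libraries with the same number ranged from -0.28 to 0.48, and those of libraries with different numbers from -0.59 to 0.38. These overlapping ranges cannot settle whether the number pairs libraries, and the main fit used no pairing. With the number as a replicate block, 2 members were called in MG vs GC and 1 (Ces2c) in MG vs AG, beside 158 and 1 of all genes. Pseudocounts and filters planned for normalized values were not run, since counts were given. Low counts limit Ces2b, and 3 libraries a group limit the precision of all values.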
